A study of Mus musculus with 20 samples.

Results

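The genes described here are 10 mouse genes whose expression reports on signals through the T-cell receptor (TCR) or on selection in the thymus: Cd5, Cd6, Cd69, Nr4a1, Nr4a3, Ikzf2, Pdcd1, Cd28, Cd27 and Cd226. A gene's probe sets were those that the platform annotation pairs with exactly that symbol and with no other gene. All 10 genes were found, with 92 of the 167016 probe sets that name 1 gene, or 5 to 16 probe sets per gene, and no probe set naming several genes listed any of them. The array names 19607 genes in all.

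Developing thymocytes test their TCR against self peptides. A weak signal lets a cell mature (positive selection), no signal leaves it to die, and a strong signal removes it or diverts it to a regulatory fate. Several genes record how strong that signal was: Nr4a1 and Nr4a3 are transcribed within a short time of TCR engagement, Cd69 marks cells that have just been signalled, and the surface level of Cd5 is set in the thymus by the strength of the signal received. Gfi1 is a zinc-finger repressor of transcription that is used in lymphoid and myeloid development.

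RNA came from 20 samples of C57BL/6 mice, 10 of thymocytes and 10 of thymic tumours, on 1 array each, and the study asked how loss of Gfi1 changes expression in irradiated or tumour-derived thymocytes. The tumour groups were 2 KO Notch tumours (Mx1Cre+ Gfi1 f/f with a Notch transgene), 2 WT Notch tumours (Gfi1 f/f with the same transgene), 3 tumours labelled KO (Mx1Cre+ Gfi1 f/f) and 3 WT tumours (Gfi1 f/f), here called ENU tumours. Every tumour mouse, WT included, received the mutagen ENU and, once ultrasound showed a growing tumour, pIpC, and cells were taken about 2 to 3 weeks later. The thymocyte groups were 3 KO and 3 WT arrays of irradiated thymocytes and 2 KO and 2 WT arrays of untreated thymocytes, and the sources used here do not give their KO allele, radiation dose, time after irradiation or age. Mx1-Cre is driven by an interferon-inducible promoter that is active in many cell types, pIpC itself induces interferon, and deletion was started in tumours already present. No label says that the samples of a group are separate mice, so p-values may measure technical spread alone, and no batch is labelled, so a batch cannot be told apart from treatment or tumour type.

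The deposited values were read as log2 signal and every level below is on that scale. The sources used here do not state the log base, so multiples of a level assume a base of 2. Levels are set against each other between groups for a single gene and never between genes. The T-lineage genes Cd3e, Cd3d, Cd3g, Cd247, Cd2, Thy1, Tcf7 and Bcl11b all lay above the 40th percentile of the array on all 20 arrays. In these bulk samples, fewer cells of a type and less RNA per cell cannot be told apart.

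The targeted gene had 8 probe sets, numbered here in the order of their IDs, and which of them were low differed between groups. Probe set 2 of Gfi1 lay between 6.31 and 7.10 in KO Notch tumours, against 11.01 to 11.43 in WT Notch tumours, and between 5.62 and 5.67 in KO untreated thymocytes, against 11.83 to 12.07 in WT untreated thymocytes. In KO irradiated thymocytes the same probe set lay between 12.72 and 12.74, against 11.34 to 11.61 in WT irradiated thymocytes, while probe sets 4 to 8 were lower in KO. The KO untreated and KO irradiated samples therefore differ in which Gfi1 probe sets are low, and irradiation in KO thymocytes is compared across groups with unlike Gfi1 patterns. In ENU tumours labelled KO, probe set 2 lay between 10.70 and 11.01, against 10.58 to 11.56 in WT ENU tumours. Of the 8 probe sets, 7 had a difference below 0, and probe sets 1, 6 and 8 were lower in labelled KO without overlap. Probe set 1, for one, lay between 9.46 and 9.64, against 9.73 to 10.36 in WT ENU tumours. None of the 8 passed the test in that comparison, in which 0 of the 13025 genes tested passed either. These tumours are called labelled KO throughout.

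One array stood apart. In KO Notch tumour 2 all 9 B-cell marker genes were above their level on all 19 other arrays, with a summed signal of 65034, against 2869 in KO Notch tumour 1 and at most 7726 on an array of any other group. Of 8 T-lineage genes, 7 were below their level on all 19 other arrays, with a summed signal of 16038, against 57886 in KO Notch tumour 1. Pearson's r between the KO Notch arrays over all probe sets was 0.87, against 0.94 to 0.99 within the other groups. Differences of the 10 genes that involve KO Notch tumours are given with and without it.

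**Figure D1:**
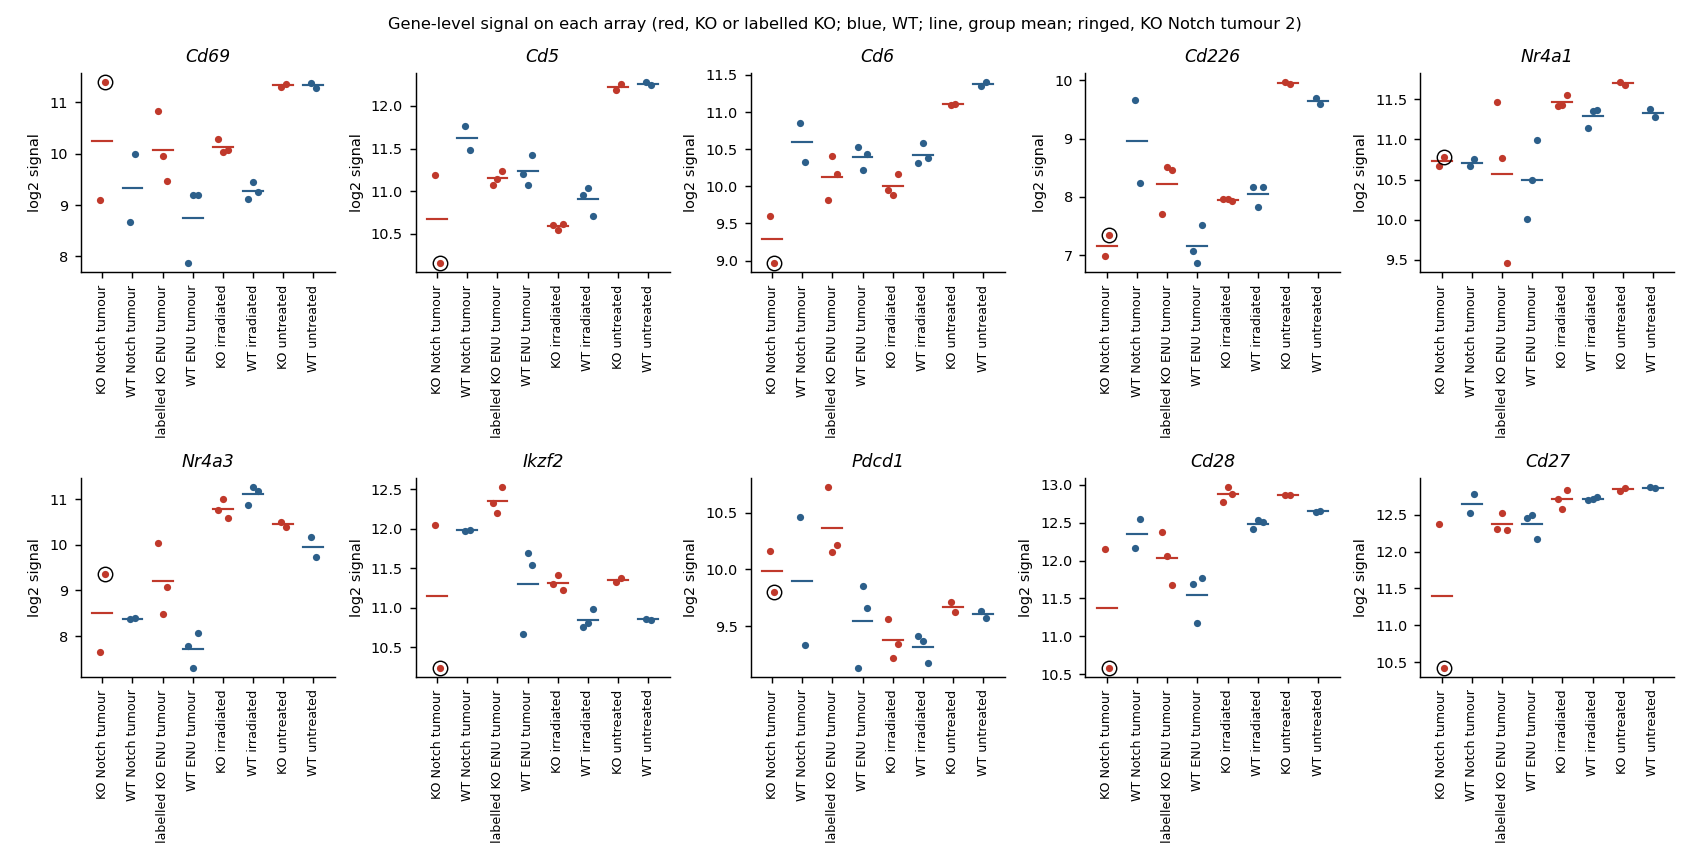
Gene-level log2 signal (y axis, a separate scale for each gene) of the 10 genes on each of the 20 arrays, by group (x axis); red points are KO or labelled KO, blue points WT, lines are group means and the ring marks KO Notch tumour 2. Cd5 and Cd6 sit highest in untreated thymocytes, as does Cd69 apart from the ringed point at 11.39, and Nr4a3 sits highest in irradiated thymocytes.

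Promoter windows of the 250 bases before the RefSeq start (GRCm38.p6) were found for 5 of the 10 genes, and 3 are shown because the thymocyte results turn on them: Nr4a3, which rose in irradiated WT thymocytes, its relative Nr4a1, which did not pass that test, and Cd5, which fell. They lie at chr4:48045055-48045304 on the plus strand for Nr4a3, chr15:101266596-101266845 on the plus strand for Nr4a1, and chr19:10738975-10739224 on the minus strand for Cd5. Each is written 5′ to 3′ along the gene. Capitals mark TGACG, the core of the site of CREB and ATF factors, or its reverse complement in the Nr4a windows, and GGAAG, the core of the site of ETS factors, in the Cd5 window.
Nr4a3: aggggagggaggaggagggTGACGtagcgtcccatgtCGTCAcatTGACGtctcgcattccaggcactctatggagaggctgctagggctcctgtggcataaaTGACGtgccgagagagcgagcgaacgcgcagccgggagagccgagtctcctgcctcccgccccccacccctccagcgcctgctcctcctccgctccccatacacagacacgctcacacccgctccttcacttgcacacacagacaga
Nr4a1: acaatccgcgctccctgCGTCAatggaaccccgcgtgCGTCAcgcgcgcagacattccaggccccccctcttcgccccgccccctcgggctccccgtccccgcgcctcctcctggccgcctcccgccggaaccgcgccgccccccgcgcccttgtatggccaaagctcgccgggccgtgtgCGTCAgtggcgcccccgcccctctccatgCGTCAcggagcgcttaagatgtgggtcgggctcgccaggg
Cd5: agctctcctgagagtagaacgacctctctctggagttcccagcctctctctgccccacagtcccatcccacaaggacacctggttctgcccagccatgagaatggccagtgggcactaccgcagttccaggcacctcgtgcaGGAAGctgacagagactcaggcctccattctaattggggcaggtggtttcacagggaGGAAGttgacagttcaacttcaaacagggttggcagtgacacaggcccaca

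TGACG occurs 4 times in the Nr4a3 window and 4 times in the Nr4a1 window, counting both strands. Of the 32851 promoter windows in the table, 17.8% hold it at least once and 0.137% at least 4 times. GGAAG occurs 2 times in the Cd5 window, and 29.4% of all windows hold it at least 2 times. None of the 5 windows (Cd27 and Pdcd1 being the other two) holds TGANTCA, the AP-1 site (6.75% of all windows hold it), AAATCAC, a GFI1 core (2.75%), or AAAGGTCA, the NR4A element (1.34%). A match describes the letters alone.

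Irradiated thymocytes had lower RNA levels of Cd69, Cd5, Cd6 and Cd226, genes of T-cell surface receptors, in both genotypes, while Nr4a3 was called higher in WT alone. In KO thymocytes 4 of the 10 genes passed the test between irradiated and untreated samples, all of them lower, where 38.8% of the 12747 genes tested passed in either direction and 23.7% were lower. In WT thymocytes 5 of the 10 passed, 4 lower and 1 higher, where 34.6% of all genes passed, 21.7% lower and 13% higher. The median difference of the 10 genes was -0.26 in KO and -0.23 in WT, beside -0.02 in KO and -0.02 in WT over all genes. The same test, limma with Benjamini-Hochberg adjustment over all genes and a threshold of 0.05, gave every adjusted p in the text. A value a ± b is a log2 difference with its standard error.

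Cd69, a lectin-like receptor that holds signalled thymocytes in the thymus, measured 10.28, 10.04 and 10.07 in KO irradiated thymocytes, against 11.30 and 11.36 in KO untreated thymocytes. In WT it measured 9.11, 9.46 and 9.25 in irradiated thymocytes, against 11.37 and 11.28 in untreated thymocytes. All irradiated arrays were below all untreated ones, and all WT irradiated arrays were below all KO irradiated ones. The difference between irradiated and untreated samples was -1.20 ± 0.11 in KO (adjusted p = 7.44e-07) and -2.06 ± 0.11 in WT (adjusted p = 2.40e-09), or 0.435 times the untreated level in KO and 0.241 times in WT. The response itself differed between genotypes by 0.86 ± 0.16 (KO minus WT, adjusted p = 0.00901), and Cd69 was the only one of the 10 genes to pass this test, which 1.88% of all genes passed, 1.1% higher. In the same contrast 8 of 9 granulocyte genes were higher and 1 lower (median 1.87), 4 of 9 macrophage and dendritic-cell genes were higher (median 0.41) and 3 of 5 erythroid genes were lower (median -1.20), and their part in the result was not tested. The Cd69 call was lost without KO untreated replicate 1, without WT untreated replicate 1 and with all 20 arrays in 1 fit. With all 20 arrays in 1 fit, the fall of Cd69 missed the threshold in KO (adjusted p = 0.224) and in WT (adjusted p = 0.0588).

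Cd5, a scavenger-receptor family protein that dampens TCR signals, measured 10.60, 10.55 and 10.61 in KO irradiated thymocytes, against 12.18 and 12.25 in KO untreated thymocytes. WT irradiated thymocytes had 10.96, 11.04 and 10.71, against 12.28 and 12.24 in WT untreated thymocytes. The irradiated and untreated groups were more than 1 log2 unit apart in both genotypes and did not overlap. Cd5 fell by 1.63 ± 0.11 in KO (adjusted p = 1.32e-08) and by 1.36 ± 0.11 in WT (adjusted p = 9.91e-08) on the log2 scale. The responses differed by -0.27 ± 0.15 (KO minus WT, adjusted p = 0.485).

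Cd6, the relative and chromosomal neighbour of Cd5 that binds Alcam on other cells, measured 9.95, 9.89 and 10.17 in KO irradiated thymocytes, against 11.10 and 11.11 in KO untreated thymocytes. WT irradiated thymocytes had 10.31, 10.59 and 10.38, against 11.35 and 11.40 in WT untreated thymocytes. As for Cd5, every irradiated array was below every untreated one. The difference was -1.11 ± 0.11 in KO (adjusted p = 1.33e-06) and -0.95 ± 0.11 in WT (adjusted p = 7.83e-06). Across the 10 thymocyte arrays Cd5 and Cd6 ran together (Pearson's r = 0.97, against 0.87 over all 20 arrays), a description over arrays that share groups and one scale. That value does not set the pair apart. Over the same 10 arrays r was 0.97 between Cd5 and Cd226, and 0.99 between Cd5 and Tubd1, a gene outside the 10.

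Cd226, an activating receptor for the poliovirus receptor Pvr, measured 7.97, 7.97 and 7.93 in KO irradiated thymocytes, against 9.97 and 9.93 in KO untreated thymocytes. In WT the irradiated arrays read 8.16, 7.83 and 8.17, against 9.69 and 9.59 for the untreated arrays. No irradiated array came near an untreated one, and all irradiated values lay below the array medians over genes (8.32 to 8.44). Cd226 fell by 1.99 ± 0.11 in KO (adjusted p = 2.22e-09) and by 1.58 ± 0.11 in WT (adjusted p = 3.05e-08), and the responses differed by -0.41 ± 0.16 (adjusted p = 0.249). The calls for Cd5, Cd6 and Cd226 held in both genotypes under all 13 alternatives run.

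Nr4a3, an orphan nuclear receptor whose gene is switched on by TCR signals, measured 10.76, 10.99 and 10.58 in KO irradiated thymocytes, against 10.51 and 10.40 in KO untreated thymocytes. WT irradiated thymocytes had 10.88, 11.26 and 11.18, against 10.17 and 9.74 in WT untreated thymocytes. Irradiated arrays lay above untreated ones in both genotypes, by a wider gap in WT. The difference was 0.33 ± 0.15 in KO (adjusted p = 0.087), which missed the threshold, and 1.15 ± 0.15 in WT (adjusted p = 1.87e-05), or 2.22 times the untreated level. The responses differed by -0.82 ± 0.21 (KO minus WT, adjusted p = 0.0531), just outside the threshold, and 6 of 18 alternatives brought that difference past it. With all 20 arrays in 1 fit the rise in WT was no longer called (adjusted p = 0.153).

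Nr4a1, the founding member of that receptor family and widely used as a reporter of TCR signal strength, did not follow Nr4a3. It measured 11.42, 11.43 and 11.56 in KO irradiated thymocytes, against 11.71 and 11.68 in KO untreated thymocytes, a difference of -0.23 ± 0.10 (adjusted p = 0.0893). In WT it measured 11.15, 11.36 and 11.37 in irradiated thymocytes, against 11.37 and 11.28 in untreated thymocytes, a difference of -0.03 ± 0.10 (adjusted p = 0.82). Over the 10 thymocyte arrays the r between Nr4a1 and Nr4a3 was -0.12, against 0.71 over all 20 arrays, where tumours and thymocytes stand apart.

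The other 4 genes did not pass the irradiation test in either genotype. Pdcd1, which encodes the inhibitory receptor PD-1, came nearest, at -0.29 ± 0.11 in KO (adjusted p = 0.0537) and -0.29 ± 0.11 in WT (adjusted p = 0.0598). Ikzf2, which encodes the transcription factor Helios of regulatory and self-reactive T cells, differed by -0.04 ± 0.10 in KO (adjusted p = 0.792) and -0.01 ± 0.10 in WT (adjusted p = 0.966). Cd28, the costimulatory receptor for Cd80 and Cd86, differed by 0.01 ± 0.10 in KO (adjusted p = 0.939) and -0.16 ± 0.10 in WT (adjusted p = 0.204). Cd27, a receptor of the TNF family that binds Cd70, differed by -0.13 ± 0.10 in KO (adjusted p = 0.302) and -0.15 ± 0.10 in WT (adjusted p = 0.242).

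**Figure D2:**
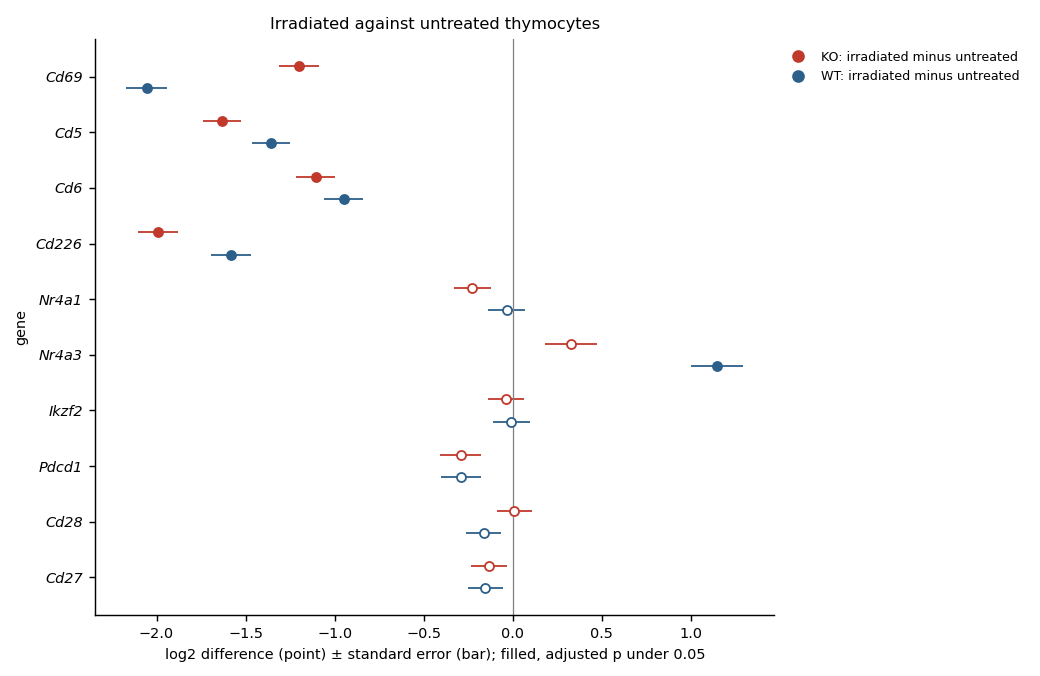
Log2 difference between irradiated and untreated thymocytes (x axis, point, with its standard error as a bar) of the 10 genes (y axis), in KO above in red and WT below in blue; filled points have an adjusted p under 0.05. Cd69, Cd5, Cd6 and Cd226 were lower in both genotypes, with Cd69 at -1.20 in KO and -2.06 in WT, and Nr4a3 was called higher in WT alone.

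The probe sets of each gene were also tested one by one over all probe sets naming 1 gene. All 6 probe sets of Cd69 were called lower in KO and all 6 in WT. For Cd5 this held for 12 of 12 in KO and 11 of 12 in WT, for Cd6 for 14 of 16 in KO and 12 of 16 in WT, and for Cd226 for 11 of 12 in KO and 9 of 12 in WT. Nr4a3 had 2 of 9 probe sets called higher in KO, with differences from -0.02 to 0.70, and 9 of 9 in WT, with differences from 0.60 to 1.35. None of the 8 probe sets of Nr4a1 was called in either genotype.

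**Figure D3:**
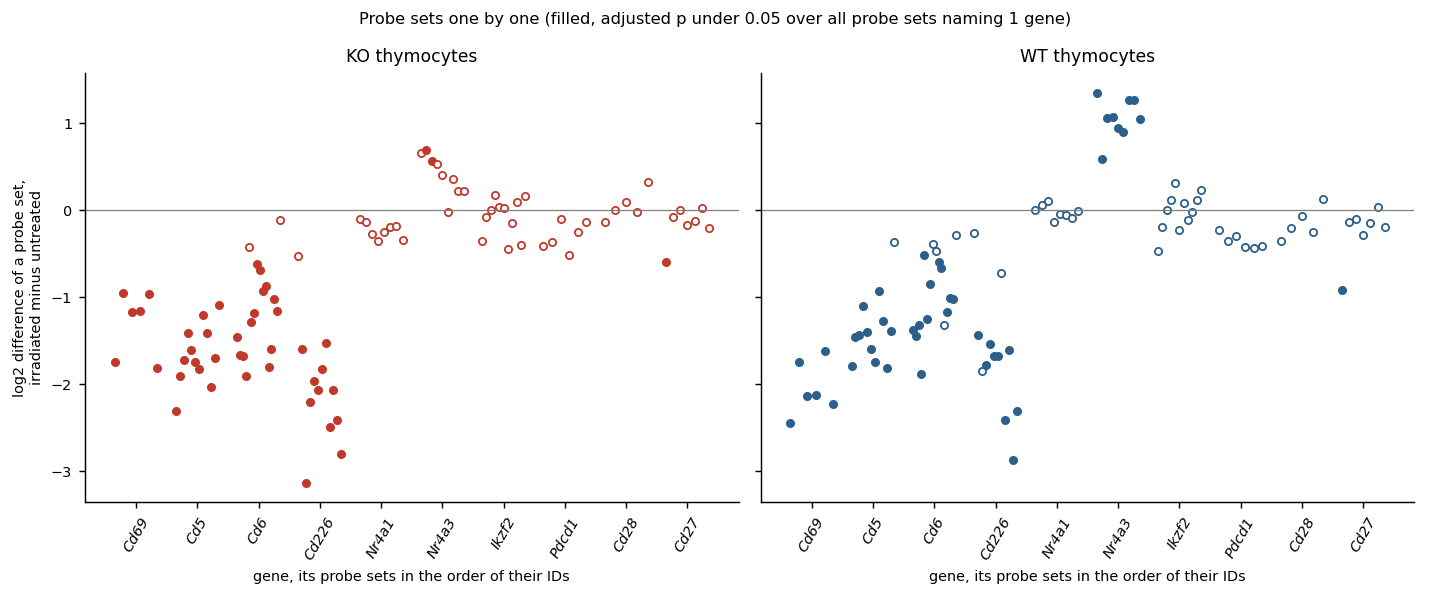
Log2 difference between irradiated and untreated thymocytes (y axis) of every probe set of the 10 genes (x axis, in the order of their IDs), in KO on the left and WT on the right; filled points have an adjusted p under 0.05 over all probe sets naming 1 gene. The Nr4a3 probe sets reached 1.35 in WT and 0.70 in KO, and those of Cd69, Cd5, Cd6 and Cd226 all lay below 0 in both genotypes.

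Markers of other cells moved with irradiation as well. In KO thymocytes 6 of 10 double-positive thymocyte genes, 8 of 9 macrophage and dendritic-cell genes, 7 of 8 B-cell genes, 6 of 8 NK and cytotoxic genes, 4 of 5 erythroid genes and 1 of 9 granulocyte genes were lower, with 1 of the 10 double-positive and 2 of the 9 granulocyte genes higher. In WT thymocytes the lower genes were 6 of 10 double-positive, 8 of 9 macrophage and dendritic-cell, 6 of 8 B-cell, 5 of 8 NK and cytotoxic, 1 of 5 erythroid and 8 of 9 granulocyte genes, with the ninth granulocyte gene higher. Of 8 T-lineage genes, 4 were lower and 1 higher in KO, and 3 lower in WT. Of 9 mature single-positive T-cell genes, 4 were lower and 3 higher in KO, and 2 lower and 1 higher in WT. Of 7 regulatory T-cell genes, 3 were lower and 1 higher in KO, and 2 lower and 2 higher in WT. Of 5 gamma delta T-cell genes, 4 were lower in KO and 1 in WT. The summed granulocyte signal was 1133 to 1182 in KO irradiated, 2566 to 3136 in WT irradiated, 1042 to 1132 in KO untreated and 7473 to 8576 in WT untreated thymocytes. The summed signal of the macrophage and dendritic-cell list was 7238 to 8902 in KO irradiated, 3268 to 3721 in WT irradiated, 17375 to 17508 in KO untreated and 11928 to 12598 in WT untreated thymocytes. The summed T-lineage signal was 57790 to 61282 in KO irradiated and 60593 to 63697 in WT irradiated thymocytes, against 67521 to 68157 in KO untreated and 68236 to 70567 in WT untreated thymocytes. Their part in the falls of Cd69, Cd5, Cd6 and Cd226 was not tested.

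Between genotypes, KO thymocytes had more Ikzf2 than WT whether irradiated or not. After irradiation they also had more Cd69 and Cd28 and less Cd5 and Cd6. In irradiated thymocytes 5 of the 10 genes passed the KO against WT test, 3 higher and 2 lower, where 14.9% of all genes passed, 8.12% higher and 6.81% lower. In untreated thymocytes 2 of the 10 passed, both higher, where 12.3% passed, 6.79% higher. The irradiated and untreated comparisons share no arrays, and the difference between them is the response difference given above, which only Cd69 passed.

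Ikzf2 measured 11.30, 11.41 and 11.22 in KO irradiated thymocytes, against 10.76, 10.80 and 10.98 in WT irradiated thymocytes. In untreated thymocytes it measured 11.33 and 11.37 in KO, against 10.86 and 10.85 in WT. Every KO array was above every WT array. The difference was 0.47 ± 0.09 in irradiated (adjusted p = 0.00163) and 0.50 ± 0.11 in untreated thymocytes (adjusted p = 0.00621), or 1.38 times the WT level in irradiated and 1.41 times in untreated thymocytes. The call in irradiated thymocytes was lost in 1 of 14 alternatives, that with all 20 arrays in 1 fit, and the call in untreated thymocytes in 5 of 12, among them the removal of any 1 of the 4 arrays. By probe set, all 11 were above 0 in both comparisons, with 3 called in irradiated and 2 in untreated thymocytes.

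Cd69 was 0.86 ± 0.10 higher in KO among irradiated thymocytes (adjusted p = 1.10e-05), or 1.81 times the WT level, with 5 of its 6 probe sets called. That call was lost with all 20 arrays in 1 fit (adjusted p = 0.86). Among untreated thymocytes the difference was 0.00 ± 0.13 (adjusted p = 0.998). Cd28 measured 12.78, 12.97 and 12.88 in KO irradiated thymocytes, against 12.42, 12.54 and 12.51 in WT irradiated thymocytes, without overlap. Its difference was 0.39 ± 0.09 (adjusted p = 0.00455) in irradiated and 0.22 ± 0.11 (adjusted p = 0.235) in untreated thymocytes, where it measured 12.86 and 12.87 in KO, against 12.65 and 12.66 in WT. The Cd28 call in irradiated thymocytes was lost with all 20 arrays in 1 fit (adjusted p = 0.986). Of its 5 probe sets, all 5 were above 0 there and 1 was called.

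Cd5 and Cd6, given by array above, were lower in KO than in WT among irradiated thymocytes and did not overlap. The difference was -0.32 ± 0.10 for Cd5 (adjusted p = 0.0323), a call lost in 8 of 14 alternatives, including a replicate block and no filter on dim genes. For Cd6 it was -0.43 ± 0.10 (adjusted p = 0.0064), a call lost in 1 of 14. By probe set, 3 of 12 were called lower for Cd5, with all 12 below 0. For Cd6 1 of 16 was called lower, with 15 below 0. In untreated thymocytes the differences were -0.04 ± 0.12 for Cd5 (adjusted p = 0.901) and -0.27 ± 0.12 for Cd6 (adjusted p = 0.189).

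Nr4a1 was 0.37 ± 0.11 higher in KO among untreated thymocytes (adjusted p = 0.0374), with all 8 probe sets above 0 and none called on its own. That call was lost in 7 of 12 alternatives, among them the removal of any 1 of the 4 arrays. In irradiated thymocytes the difference was 0.18 ± 0.09 (adjusted p = 0.236). Nr4a3 differed by -0.33 ± 0.13 in irradiated (adjusted p = 0.117) and 0.50 ± 0.16 in untreated thymocytes (adjusted p = 0.0547). Cd226 differed by -0.10 ± 0.10 in irradiated (adjusted p = 0.607) and 0.31 ± 0.12 in untreated thymocytes (adjusted p = 0.121). Pdcd1 and Cd27 had differences between -0.03 and 0.06 in the pair of comparisons.

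**Figure D4:**
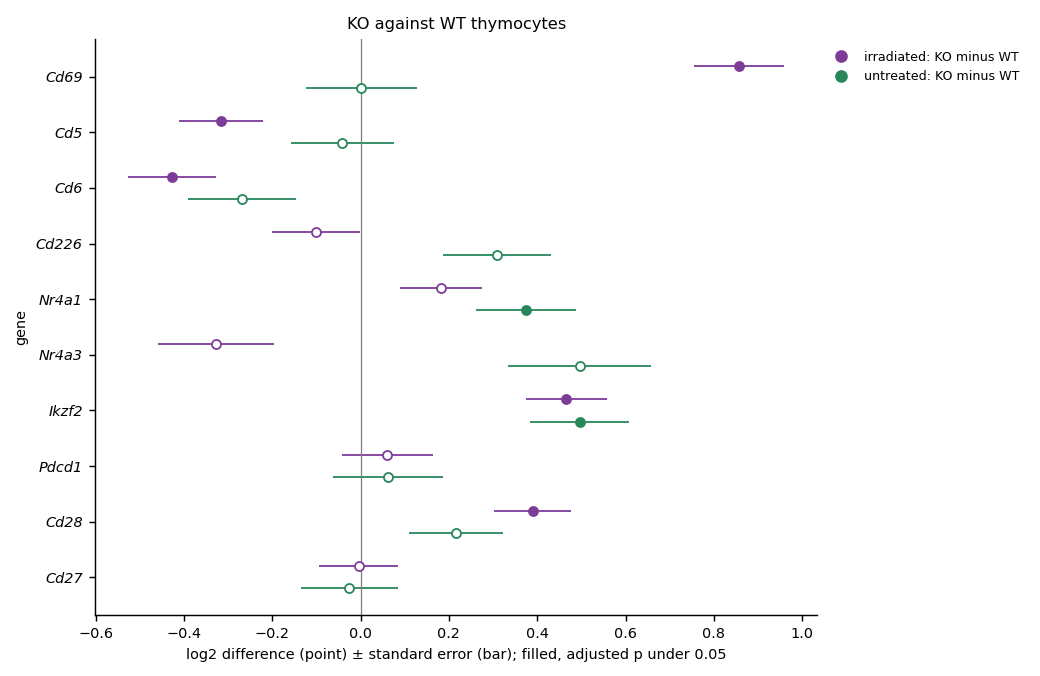
Log2 difference between KO and WT thymocytes (x axis, point, with its standard error as a bar) of the 10 genes (y axis), irradiated above in purple and untreated below in green; filled points have an adjusted p under 0.05. Ikzf2 was called higher in both, at 0.47 and 0.50, and Cd69 at 0.86 in irradiated and 0.00 in untreated thymocytes.

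Marker lists of several cell types moved between the genotypes too. Of 9 genes of mature single-positive T cells, 6 were higher in KO among irradiated and 7 among untreated thymocytes, and the summed signal was 39038 to 40667 in KO irradiated, against 28342 to 29958 in WT irradiated, and 40217 to 41240 in KO untreated, against 29234 to 31390 in WT untreated thymocytes. Of 7 regulatory T-cell genes, 2 were higher and 1 lower in KO among irradiated thymocytes and 3 were higher among untreated thymocytes, with Foxp3, the factor that defines those cells, at 0.79 ± 0.10 (adjusted p = 3.49e-05) in irradiated and 0.60 ± 0.13 (adjusted p = 0.00387) in untreated thymocytes. Higher in KO were also 7 of 8 NK and cytotoxic genes, 8 of 9 macrophage and dendritic-cell genes and 3 of 5 gamma delta T-cell genes among irradiated thymocytes, and 5 of 8, 6 of 9 and 4 of 5 among untreated ones. Granulocyte genes were lower in KO, 7 of 9 among irradiated (median -0.89) and 8 of 9 among untreated thymocytes (median -2.61). Erythroid genes were higher in KO, 4 of 5 among irradiated (median 0.75) and 4 of 5 among untreated thymocytes (median 1.84). Of 8 B-cell genes, 5 were higher and 1 lower among irradiated and 5 higher among untreated thymocytes. Of 10 double-positive thymocyte genes, 2 were lower in KO in each. The part of these cells in the differences of Ikzf2, Cd69, Cd28, Cd5, Cd6 and Nr4a1 was not tested.

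Other genes of the same pathways were followed as 3 lists. Of 25 genes induced by TCR signals, 5 were higher and 13 lower in irradiated than in untreated KO thymocytes (median -0.32), and 4 were higher and 10 lower in WT (median -0.16). Egr1, an early response transcription factor, differed by -1.71 ± 0.10 in KO and -1.73 ± 0.10 in WT, and its relative Egr2 by -1.05 ± 0.10 in KO and -1.73 ± 0.10 in WT. Nr4a2, the remaining Nr4a family member, rose by 1.52 ± 0.11 in KO (adjusted p = 4.76e-08) and by 1.69 ± 0.11 in WT (adjusted p = 1.29e-08). The response of 3 genes of the list differed between genotypes, Egr2 by 0.68 ± 0.14 (adjusted p = 0.0167), the signalling factor Nfatc1 by -0.82 ± 0.14 (adjusted p = 0.00623) and the IL-2 receptor chain Il2ra by -0.71 ± 0.14 (adjusted p = 0.0124). Between genotypes, 9 of the 25 were higher and 4 lower in KO among irradiated thymocytes, and 7 were higher among untreated ones. The tetraspanin Cd53 was 1.12 ± 0.09 higher in KO among irradiated and 0.75 ± 0.10 higher among untreated thymocytes.

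Of 14 inhibitory and costimulatory receptors of T cells, 2 were higher and 9 lower in irradiated than in untreated KO thymocytes, and 2 were higher and 7 lower in WT. Ctla4, an inhibitory rival of Cd28 for the same ligands, rose by 1.77 ± 0.12 in KO (adjusted p = 3.17e-08) and by 1.56 ± 0.12 in WT (adjusted p = 1.13e-07), and Btla, another inhibitory receptor, fell by 1.06 ± 0.11 in KO and by 1.19 ± 0.11 in WT. Against WT, Ctla4 was 1.33 ± 0.11 higher in KO among irradiated and 1.13 ± 0.14 higher among untreated thymocytes, and in all 5 of the 14 were higher and 2 lower among irradiated and 4 higher among untreated ones. The lists share genes, so their counts are not separate. Cd2 stands on this, the TCR-induced and the T-lineage list, and Ctla4 on this and the regulatory T-cell list. Il2ra, Tnfrsf4 and Tnfrsf18 stand on the TCR-induced and regulatory T-cell lists. The mature single-positive list shares Ccr7 with the TCR-induced list and S1pr1 with the partner list below.

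Of 18 ligands and signalling partners of the 10 genes, 15 could be tested in thymocytes. In irradiated against untreated samples 2 were higher and 10 lower in KO, and 1 was higher and 8 lower in WT. Ptpn6, a phosphatase that acts with Cd5 in dampening TCR signals, differed by -1.29 ± 0.11 in KO and -1.22 ± 0.11 in WT, and Cd72, a proposed ligand of Cd5, by -1.19 ± 0.12 in KO and -1.47 ± 0.12 in WT. Against WT, KO thymocytes had 6 of the 15 higher and 1 lower when irradiated and 5 higher when untreated. Traf5, an adaptor of Cd27, was 1.80 ± 0.11 higher in KO among irradiated (adjusted p = 3.28e-09) and 1.74 ± 0.14 higher among untreated thymocytes (adjusted p = 1.01e-07), while Cd27 itself was near 0 in both. S1pr1, the egress receptor that Cd69 removes from the cell surface, was 1.27 ± 0.10 higher in KO among irradiated and 0.83 ± 0.12 higher among untreated thymocytes. Rxra, a nuclear receptor that pairs with Nr4a1, was 0.78 ± 0.11 higher in KO among untreated thymocytes (adjusted p = 8.32e-05), and among irradiated ones the difference was 0.14 ± 0.09 (adjusted p = 0.375). Its response to irradiation differed between genotypes by -0.64 ± 0.14 (KO minus WT, adjusted p = 0.022), the only call of this list in that contrast.

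WT ENU tumours had less of 6 of the 10 genes than WT untreated thymocytes. The 6 were Cd69, Cd226, Nr4a3, Cd28, Cd5 and Cd6, where 20.1% of the 13520 genes tested passed, 10.2% lower. Cd69 measured 7.87, 9.19 and 9.19 in WT ENU tumours, more than 2 log2 units below both WT untreated arrays, a difference of -2.58 ± 0.57 (adjusted p = 0.00621). Cd226 measured 7.07, 6.87 and 7.53 in WT ENU tumours, a difference of -2.48 ± 0.33 (adjusted p = 0.000217). Nr4a3 measured 7.78, 7.30 and 8.06 in WT ENU tumours, a difference of -2.24 ± 0.44 (adjusted p = 0.00284). For each of these 3 genes every tumour array was below both thymocyte arrays, which are given by array above. In WT ENU tumours all values of Cd226 and Nr4a3 lay below the array medians over genes (8.32 to 8.44).

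Cd5 measured 11.20, 11.07 and 11.43 in WT ENU tumours, a difference of -1.03 ± 0.21 (adjusted p = 0.00413), Cd6 differed by -0.98 ± 0.21 (adjusted p = 0.00455) and Cd28 by -1.11 ± 0.32 (adjusted p = 0.0265). Nr4a1 differed by -0.82 ± 0.39 (adjusted p = 0.155), Cd27 by -0.49 ± 0.35 (adjusted p = 0.361), Ikzf2 by 0.44 ± 0.37 (adjusted p = 0.453) and Pdcd1 by -0.06 ± 0.28 (adjusted p = 0.918). Leaving out 1 array at a time gave 2 calls without WT untreated replicate 1 and 3 without WT untreated replicate 2, and Cd226 was called in all 13 alternatives. The spread in this fit comes from all 20 arrays. With KO Notch tumour 2 left out of it 7 of the 10 genes were lower, Cd27 being the one added. Calls rose over all genes as well, from 2713, of them 1378 lower, to 3772, of them 1884 lower.

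Between WT Notch tumours and WT untreated thymocytes 1 of the 10 genes passed, Cd6 at -0.79 ± 0.23 (adjusted p = 0.046), where 7.68% of all genes passed, 5.54% lower. It measured 10.86 and 10.33 in WT Notch tumours, and its call was lost in 7 of 12 alternatives. Cd69 differed by -1.997 ± 0.624 (adjusted p = 0.065), Nr4a3 by -1.57 ± 0.48 (adjusted p = 0.0577), Cd5 by -0.63 ± 0.23 (adjusted p = 0.112) and Ikzf2 by 1.13 ± 0.41 (adjusted p = 0.105). With KO Notch tumour 2 left out of the spread, 5 of the 10 genes passed, Cd5, Cd6, Cd69 and Nr4a3 lower and Ikzf2 higher. Over all genes the calls rose too, from 1038, of them 749 lower, to 2034, of them 1356 lower and 678 higher.

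**Figure D5:**
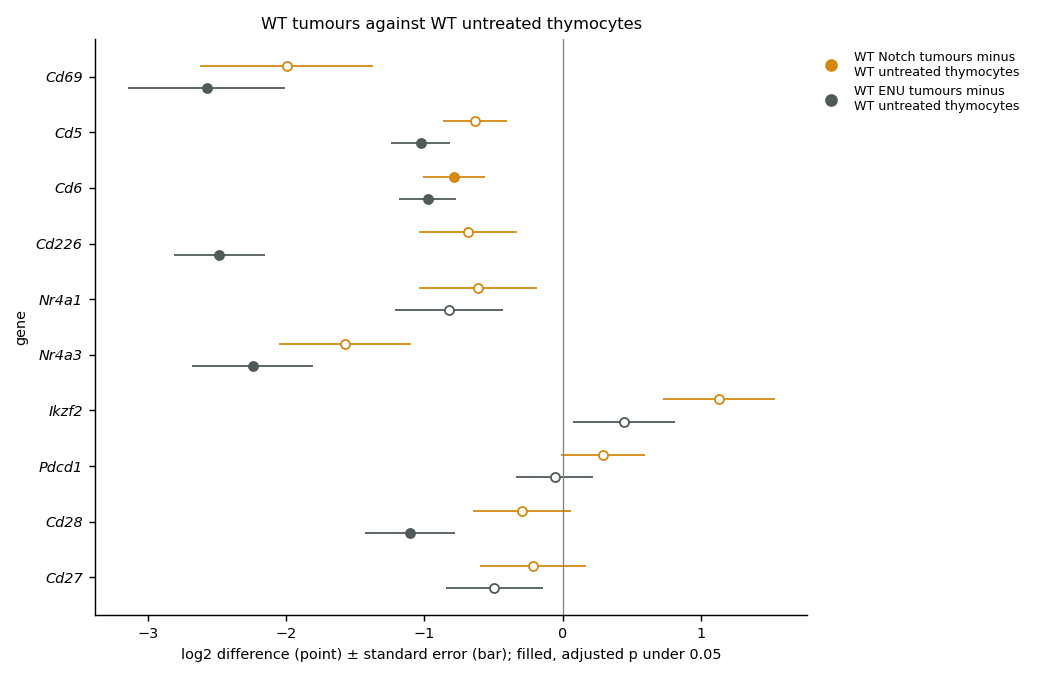
Log2 difference between WT tumours and WT untreated thymocytes (x axis, point, with its standard error as a bar) of the 10 genes (y axis), Notch tumours above in orange and ENU tumours below in grey; filled points have an adjusted p under 0.05. In ENU tumours 6 genes were called lower, down to -2.58 for Cd69, and in Notch tumours Cd6 alone was called, at -0.79.

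The tumours differed from thymocytes in their other markers as well. The summed signal of the double-positive thymocyte list was 26302 to 37186 in WT ENU tumours and 17148 to 43995 in WT Notch tumours, against 73787 to 76511 in WT untreated thymocytes, and that of the T-lineage list was 53527 to 60462 in WT ENU tumours and 57112 to 62015 in WT Notch tumours, against 68236 to 70567. In WT ENU tumours 4 of 9 mature single-positive T-cell genes and 7 of 9 granulocyte genes were lower, and in WT Notch tumours 7 of 9 granulocyte genes were lower. Their part in the results was not tested. Of the 25 TCR-induced genes 1 was higher and 10 were lower in WT ENU tumours (median -0.78), with Egr2 at -2.24 ± 0.33 (adjusted p = 0.000479) and the homing receptor Ccr7 at -2.31 ± 0.36 (adjusted p = 0.000656). In WT Notch tumours 2 were lower, Egr2 at -1.29 ± 0.36 (adjusted p = 0.0422) and the costimulatory receptor Tnfrsf4 at -1.24 ± 0.35 (adjusted p = 0.0404).

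Between labelled KO and WT ENU tumours limma called none of the 10 genes, and 0% of the 13025 genes tested passed. At an unadjusted p under 0.05 it called 4 of the 10, where 13.7% of all genes passed, and 0 of the 10 passed with KO Notch tumour 2 left out of the spread. Without overlap, 5 genes were higher in all labelled KO arrays (Cd69, Nr4a3, Ikzf2, Pdcd1 and Cd226), where 10.4% of all genes were higher in this way. No gene of a marker list was called, but 4 lists had a higher summed signal in labelled KO without overlap. Mature single-positive T-cell genes summed to 23869 to 28173 in labelled KO, against 10413 to 15593 in WT ENU tumours, and NK and cytotoxic genes to 8783 to 10853 in labelled KO, against 3659 to 6839 in WT. Macrophage and dendritic-cell genes summed to 11980 to 28780 in labelled KO, against 9260 to 11378 in WT, and erythroid genes to 4334 to 15992 in labelled KO, against 1888 to 2505 in WT. Their part in these differences was not tested.

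Nr4a3 measured 10.05, 8.48 and 9.07 in labelled KO ENU tumours, a difference from WT ENU tumours of 1.49 ± 0.50 (adjusted p = 0.351). Cd69 measured 10.82, 9.95 and 9.46 in labelled KO ENU tumours, a difference of 1.32 ± 0.67 (adjusted p = 0.379). Cd226 measured 7.70, 8.52 and 8.47 in labelled KO ENU tumours, a difference of 1.07 ± 0.38 (adjusted p = 0.352). For Nr4a3 the SD was 0.79 in labelled KO and 0.38 in WT ENU tumours.

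Ikzf2 measured 12.33, 12.19 and 12.52 in labelled KO ENU tumours, against 10.66, 11.69 and 11.53 in WT ENU tumours, a difference of 1.05 ± 0.44 (adjusted p = 0.363). Pdcd1 measured 10.73, 10.16 and 10.21 in labelled KO ENU tumours, against 9.13, 9.85 and 9.66 in WT ENU tumours, a difference of 0.82 ± 0.32 (adjusted p = 0.363). Labelled KO ENU tumours held the highest group mean of all 8 groups for both genes, and for Ikzf2 these arrays did not overlap the next group, WT Notch tumours at 11.98 and 11.99. Cd28 differed by 0.49 ± 0.39 (adjusted p = 0.498), and Cd5, Cd6, Nr4a1 and Cd27 had differences between -0.27 and 0.07. With all 20 arrays in 1 fit 2 of the 10 genes were called, Nr4a3 (adjusted p = 0.0439) and Cd226 (adjusted p = 0.0482).

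Between KO and WT Notch tumours limma also called none of the 10 genes, where 0.0154% of all genes passed, and 4 at an unadjusted p under 0.05, where 5.99% passed. Cd5, Cd6, Cd28, Cd27 and Cd226 were lower in both KO arrays without overlap, where 17.4% of all genes were lower in this way. For some of these genes the gap was far smaller without the array rich in B-cell genes. Cd27 measured 12.38 and 10.42 in KO Notch tumours, the second value being KO Notch tumour 2, against 12.52 and 12.78 in WT Notch tumours. Its difference was -1.25 ± 0.51 (adjusted p = 0.806) with that array and -0.27 without it, and for Cd28 it was -0.99 ± 0.47 (adjusted p = 0.806) with and -0.20 without it. Ikzf2 measured 12.05 and 10.24 in KO Notch tumours, against 11.98 and 11.99 in WT Notch tumours, and its difference was -0.84 ± 0.54 (adjusted p = 0.829) with that array and 0.07 without it.

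Cd226 and Cd6 were low in both KO Notch tumours. Cd226 measured 6.98 and 7.35 in KO Notch tumours, against 9.66 and 8.24 in WT Notch tumours, a difference of -1.79 ± 0.47 (adjusted p = 0.604), or -1.97 without KO Notch tumour 2. Both KO Notch values of Cd226 lay below the array medians over genes (8.32 to 8.44). Cd6 measured 9.60 and 8.97 in KO Notch tumours, against 10.86 and 10.33 in WT Notch tumours, a difference of -1.31 ± 0.29 (adjusted p = 0.396), or -0.99 without that array. Cd5 measured 11.19 and 10.16 in KO Notch tumours, against 11.76 and 11.49 in WT Notch tumours, a difference of -0.95 ± 0.30 (adjusted p = 0.683), or -0.44 without that array. Leaving out KO Notch tumour 1 leaves the B-cell-rich array alone in its group. The difference was then -2.23 for Cd27, -1.77 for Cd28, -1.74 for Ikzf2, -1.62 for Cd6 and -1.47 for Cd5. For Cd69 it was 2.06 and for Nr4a3 0.98. With all 20 arrays in 1 fit 2 of the 10 genes were called, Cd6 and Cd226. Over all genes that fit called 184, against 2 in the tumour fit.

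In the remaining genes of that comparison the KO and WT arrays overlapped. Cd69 measured 9.09 and 11.39 in KO Notch tumours, the higher value in the B-cell-rich array, against 8.67 and 9.99 in WT Notch tumours. Nr4a3 measured 7.64 and 9.37 in KO Notch tumours, again higher in that array, against 8.36 and 8.40 in WT Notch tumours. Nr4a1 measured 10.67 and 10.78 in KO Notch tumours, against 10.67 and 10.75 in WT Notch tumours, and Pdcd1 10.16 and 9.80 in KO, against 10.46 and 9.33 in WT. The adjusted p of these 4 genes was 0.879 or higher. The difference of Cd69 was 0.91 ± 0.82 with KO Notch tumour 2 and -0.24 without it, and that of Nr4a3 was 0.12 ± 0.61 with and -0.74 without it. Nr4a1 differed by 0.02 ± 0.57 with and -0.04 without that array, and Pdcd1 by 0.09 ± 0.39 with and 0.27 without it.

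Between WT Notch and WT ENU tumours limma called none of the 10 genes, where 0.023% of all genes passed, and 1 at an unadjusted p under 0.05, where 7.42% passed. Cd226 differed most, with 9.66 and 8.24 in WT Notch tumours, against 7.07, 6.87 and 7.53 in WT ENU tumours, a difference of 1.80 ± 0.43 (adjusted p = 0.361). These WT ENU values lay below the array medians over genes (8.32 to 8.44), so the size of the Cd226 difference rests on dim signals. In this comparison Cd226 could be tested in 12 alternatives and Cd5 in 14. Without overlap, 6 of the 10 genes were higher in Notch tumours (Cd5, Nr4a3, Ikzf2, Cd28, Cd27 and Cd226), where 13% of all genes were higher in this way. A difference in the KO effect between tumour types was called in none of the 10 genes, where 0% of all genes passed, and in 4 at an unadjusted p under 0.05, where 7.17% passed. The 4 were Cd6, Ikzf2, Cd28 and Cd226. For Cd226 the difference of effects was -2.86 ± 0.60 (Notch minus ENU, adjusted p = 0.501), or -3.04 without KO Notch tumour 2, and for Cd6 it was -1.04 ± 0.37 (adjusted p = 0.681), or -0.72 without that array. For Ikzf2 it was -1.89 ± 0.69 (adjusted p = 0.681) with that array and -0.99 without it, and for Cd28 it was -1.48 ± 0.61 (adjusted p = 0.681) with and -0.70 without it. With all 20 arrays in 1 fit Cd226 was called in both of these comparisons.

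Across all 8 groups the order of mean levels set the genes apart. Cd5 and Cd6 were highest in WT untreated thymocytes, with KO untreated next, and in Cd5 those neighbours overlapped while in Cd6 they did not. Lowest were KO irradiated thymocytes for Cd5 (mean 10.59) and KO Notch tumours for Cd6 (mean 9.28). Nr4a1 was highest in KO untreated (mean 11.70) and lowest in WT ENU tumours (mean 10.50), and its 4 tumour groups overlapped as neighbours in the order. Nr4a3 was highest in WT irradiated thymocytes (mean 11.11) and lowest in WT ENU tumours (mean 7.71). Cd28 was highest in KO irradiated thymocytes (mean 12.88), which overlapped KO untreated (mean 12.87). Cd27 had group means between 12.37 and 12.87 in every group except KO Notch tumours (mean 11.40), the group that holds the B-cell-rich array.

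By Pearson's r over the 20 arrays, the genes most like each of the 10 were Pigx (r = 0.95) for Cd5, Saps1 (0.92) for Cd6, 9230105E10Rik (0.92) for Cd69, Elf1 (0.89) for Cd226, Gmfg (0.86) for Nr4a1, Zkscan14 (0.95) for Nr4a3, Aak1 (0.90) for Ikzf2, Arrb2 (0.90) for Pdcd1, Zfp386 (0.96) for Cd28 and Tcf7 (0.98) for Cd27. The arrays share groups, so these values describe group patterns. For Cd27 the r with Tcf7 was 0.87 without KO Notch tumour 2. For Nr4a1 the r with Gmfg was 0.16 over the 10 thymocyte arrays.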

How the data were processed

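RNA of 20 mouse samples was hybridised to 1 array each. Per the labels, extraction used a Qiagen kit, and copies made with a NuGEN kit carried biotin. The values the authors deposited, 182058 probe sets by 20 arrays, were read as log2 signal (3.37 to 15.01, array medians 9.08 to 9.27). The sources used here do not state the log base or how background, normalization and summary were done.

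Gene names came from GEO's annotation of the platform, which may hold old symbols and in which 167016 probe sets name 1 gene and were used, 3388 name several and 11654 none. All 10 symbols are current RefSeq symbols (GRCm38.p6, used for names and promoter windows). The mean of each probe set over the 20 arrays was subtracted, the median over a gene's probe sets was taken per array, and the mean of those probe set means was added back. Genes above the 40th percentile of an array on at least 2 arrays of the fit were tested with limma 3.58.1 (lmFit, eBayes) in R 4.3.3, 1 mean per group, with Benjamini-Hochberg adjustment over all genes tested and a threshold of 0.05. The 5 thymocyte comparisons used the 10 thymocyte arrays, the 4 tumour comparisons the 10 tumour arrays, and the 2 comparisons of tumours with thymocytes all 20. The package data.table (1.17.8) read the files, and matplotlib (3.10.9) under Python 3.11.15 made the figures. With 2 or 3 arrays per group, precision is limited by their number.

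The 10 genes, the context and marker lists and the tests were chosen with earlier results of these data known. All 10 genes are named. From a context list, the text names at most 4 genes per comparison, those with the smallest p. A gene so named may also be given for the matching comparison, as Rxra was in irradiated thymocytes. For likeness to a gene, the text names the gene with the highest Pearson r over the 20 arrays. From the marker lists Foxp3 is named as the defining gene of regulatory T cells. The test was checked on simulated data with known differences. In KO against WT, a simulated log2 difference of 1 was recovered in 98% of changed genes for irradiated and 97% for untreated thymocytes. For ENU tumours the share was 46% and for Notch tumours 27%, so differences of that size can go uncalled in tumours. Among unchanged genes there were 8 false calls for irradiated and 3 for untreated thymocytes, 8 for ENU tumours and 18 for Notch tumours. Each gene was simulated with the same spread in every group, so a group as uneven as the KO Notch tumours was not covered.

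Alternatives were further quantile normalization, no filter or a stricter filter on dim genes, other summaries of probe sets, a trended and robust variance, a replicate block, all 20 arrays in 1 fit and each array left out in turn. Leaving KO Notch tumour 2 out of the estimate of the spread was added after seeing the data.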

Additional observations from a re-analysis of the deposited data

Results flagged for a closer look

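The irradiation response of Cd69 differed between genotypes by a test of the difference itself. Irradiated minus untreated thymocytes gave -1.20 ± 0.11 in KO and -2.06 ± 0.11 in WT, a difference of 0.86 ± 0.16 (KO minus WT, limma, adjusted p = 0.00901). All 6 probe sets had a difference above 0, from 0.42 to 0.96, and none passed the test on its own. The KO groups compared here differ in which Gfi1 probe sets are low, and in the same contrast 8 of 9 granulocyte genes were higher and 1 lower, 4 of 9 macrophage and dendritic-cell genes were higher and 3 of 5 erythroid genes were lower. Their part in the result was not tested. No group holds the 4 arrays needed for a test of single outlying arrays.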

How the results depend on the processing

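Of 24 called differences of the 10 genes, 7 were called in every alternative, 17 were lost in at least 1, and 0 changed sign. Of 86 uncalled differences, 28 passed the threshold in at least 1 alternative. The 7 were the falls of Cd5, Cd6 and Cd226 after irradiation in both genotypes and the lower Cd226 in WT ENU tumours. With all 20 arrays in 1 fit the number of the 10 genes called went to 0 for KO against WT in untreated thymocytes (2 in the design used) and irradiated thymocytes (5), 3 for irradiated against untreated WT thymocytes (5), 0 for the difference in irradiation response (1), 2 for labelled KO against WT ENU tumours (0), 2 for KO against WT Notch tumours (0), 1 for WT Notch against WT ENU tumours (0) and 1 for the difference in KO effect (0); the cause was not tested. The difference in irradiation response gave 2 calls with quantile normalization, the stricter filter or the trended and robust variance. Untreated KO against WT gave 1 call with no filter, and WT Notch tumours against untreated thymocytes gave 0 with no filter, 0 with the mean of probe sets and 5 with KO Notch tumour 2 left out of the spread. Leaving out each array in turn gave 0 to 1 calls for untreated KO against WT, 4 to 5 for irradiated KO against WT, 0 to 2 for the difference in irradiation response, 0 to 5 for KO against WT Notch tumours, 0 to 4 for the difference in KO effect, 2 to 6 for WT ENU tumours against untreated thymocytes and 0 to 1 for WT Notch tumours against them.

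No label pairs samples of KO and WT beyond a shared number. The correlation of deviations from the group means ran from -0.32 to 0.20 over 10 same-numbered pairs. Where both groups hold 2 arrays the pairs repeat 1 value, so the 10 are not separate and cannot settle whether samples were paired. Between irradiated and untreated arrays of the same number it was -0.33 and -0.46 in WT, and 0.06 and 0.10 in KO. With a replicate block, 1 of the 10 genes was called between KO and WT untreated thymocytes (Ikzf2) and 0 between WT Notch tumours and WT untreated thymocytes. Over all genes, all 20 arrays in 1 fit changed the number called by more than 1.5 times in 9 comparisons, among them 115 against 1566 for KO against WT in untreated and 148 against 1903 in irradiated thymocytes, 772 against 4946 for irradiation in KO and 548 against 4413 in WT, and 679 against 0 for labelled KO against WT ENU tumours. Leaving KO Notch tumour 2 out of the spread gave 25 calls against 0 for ENU tumours, 27 against 3 for WT Notch against WT ENU tumours and 2034 against 1038 for WT Notch tumours against thymocytes.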
